A study of Arabidopsis thaliana with 12 samples.

Results

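Salicylic acid synthesis is followed here through 7 genes of Arabidopsis thaliana, chosen by identifier: the isochorismate synthases ICS1 (AT1G74710) and ICS2 (AT1G18870), the amino acid conjugating enzyme PBS3 (AT5G13320), the acyltransferase-family enzyme EPS1 (AT5G67160), the transporter EDS5 (AT4G39030), and the transcription factors SARD1 (AT1G73805) and CBP60g (AT5G26920). They are 7 of the 33602 gene identifiers in the deposited count table, and all 7 were among the 20736 that passed the filter on low counts. RNA was sequenced from whole seedlings aged 7 days, in 4 groups of 3 biological replicates: gp1-2 with GB03 volatiles, gp1-2 without bacteria, Col-0 with GB03 volatiles and Col-0 without bacteria. The line gp1-2 is a T-DNA insertion line, SAIL_209_D07, and Col-0 is the wild type of the same background. All seedlings were moved at 5 days of age to divided plates with MS medium and 1% sucrose, at 22 °C under 16 h of light, and the treated ones shared their plate with the bacterium GB03 for 2 days. GB03 is a Bacillus strain known for promoting plant growth, in part through the volatile compounds it gives off.

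Plants make salicylic acid, a hormone of defence against pathogens, mostly from chorismate. In the plastid, isochorismate synthase turns chorismate into isochorismate. EDS5 exports isochorismate to the cytosol, where PBS3 joins it to glutamate. The conjugate breaks down to salicylic acid, a step that EPS1 speeds up. SARD1 and CBP60g are related transcription factors of the CBP60 family with overlapping roles, and both bind the ICS1 promoter and raise its transcription. In Arabidopsis, ICS1 is the isochorismate synthase that supplies most defence-related salicylic acid, while ICS2 has a minor part.

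Library totals ran over 19583445 to 25214934 counts in gp1-2 with volatiles, 17908408 to 18725561 in gp1-2 without bacteria, 15196962 to 15839067 in Col-0 with volatiles and 11158051 to 14999793 in Col-0 without bacteria. Levels below are in CPM, the counts of a gene scaled to a common library total after adjustment of the totals by the TMM method. Differences are log2 fold changes with their standard error (SE) from edgeR's quasi-likelihood test over all 12 libraries. A difference was called at a Benjamini-Hochberg adjusted p under 0.05 over all genes tested. The insertion line is named in the labels without its locus, so the loss of the mutated gene could not be checked, and gp1-2 stands throughout for the libraries labelled so. FAB2 (AT2G43710), a stearoyl-acyl carrier protein desaturase gene, was taken as a candidate for that locus, which the labels do not state. It was at 644 ± 80.9 CPM in gp1-2 with volatiles and 679 ± 82.8 CPM in gp1-2 without bacteria, against 176 ± 7.78 CPM in Col-0 with volatiles and 123 ± 5.33 CPM in Col-0 without bacteria (SD, n = 3 each). FAB2 was called higher in gp1-2, by 2.47 ± 0.11 on the log2 scale without bacteria and 1.87 ± 0.11 with volatiles (edgeR adjusted p 1e-10 and 1.6e-09). Its level thus shows no loss, and whether it is the mutated gene was not tested. None of the 6 root and 4 shoot epidermis markers was at or under 3 counts in all libraries of a group, while the 5 seed and flower markers summed to at most 1.15 CPM in any library. All 4 genes listed as leaf mesophyll markers (RBCS1A, LHCB1.3, GIF1 and AS1) were called lower in gp1-2 in both conditions. So was the stomatal lineage marker SPCH (−0.60 and −0.47 on the log2 scale). Among all genes tested, 17.2% were called lower in gp1-2 without bacteria and 23.3% with volatiles. With volatiles the guard cell marker FAMA (−0.43), both phloem markers SUC2 and APL (−0.33 and −0.43) and the root marker COBL9 (−0.37) were also lower in gp1-2. SUC2 and FAMA were lower with volatiles in both genotypes, at −0.71 and −0.82 in gp1-2 and −0.59 and −0.52 in Col-0. APL was lower with volatiles in gp1-2 (−0.44). Not all marker calls for the volatiles were falls. Of the 6 root markers, volatiles raised 1 in each genotype and lowered 1 in gp1-2. Of the 4 mesophyll markers, 3 fell in gp1-2 and 1 in Col-0. Of the 4 shoot epidermis markers, 1 fell in gp1-2 and 2 in Col-0, counting FAMA. The summed level of the mesophyll markers was 10500 to 11900 CPM in gp1-2 with volatiles and 13700 to 14500 CPM in gp1-2 without bacteria, against 23800 to 27100 CPM in Col-0 with volatiles and 21200 to 27700 CPM in Col-0 without bacteria. That sum is almost wholly the photosynthesis genes RBCS1A and LHCB1.3. In gp1-2 with volatiles they averaged 5400 and 5700 CPM, beside 16.6 CPM for GIF1 and 36.2 CPM for AS1. The part of tissue makeup in the results was not tested, and in whole seedlings fewer cells of a type and less RNA per cell cannot be told apart. In each group the third library differed more from the others than they did from each other. Pairs that include it differed by 9.28 to 15.3 chi-square units per degree of freedom, against 2.58 to 8.1 between the first and second libraries. In Col-0 without bacteria it hardly stood apart, at 9.28 from the second library beside 8.1 between the first and second. Calls of the 7 genes and of the list genes refitted under the alternatives that change without the third library of every group are given below with both values.

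The promoters of ICS1, ICS2 and SARD1 are shown because the results turn on the opposite behaviour of the paired synthase genes and on SARD1, the regulator of ICS1. Each run is the 250 bases before the annotated gene start, 5′ to 3′ on the gene's strand, read from the TAIR10.1 reference. Capitals mark GAAATTT (the core bound by SARD1 and CBP60g), CGCGT (the core bound by calmodulin-binding CAMTA factors) and TGACG (the core bound by TGA factors), on either strand.
ICS1, chr1:28070045-28070294, plus strand: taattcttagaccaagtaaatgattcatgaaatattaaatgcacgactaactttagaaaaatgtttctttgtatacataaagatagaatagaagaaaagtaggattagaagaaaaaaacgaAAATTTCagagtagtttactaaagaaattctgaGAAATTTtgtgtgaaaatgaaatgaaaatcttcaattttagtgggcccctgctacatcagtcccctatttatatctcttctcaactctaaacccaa
ICS2, chr1:6515123-6515372, plus strand: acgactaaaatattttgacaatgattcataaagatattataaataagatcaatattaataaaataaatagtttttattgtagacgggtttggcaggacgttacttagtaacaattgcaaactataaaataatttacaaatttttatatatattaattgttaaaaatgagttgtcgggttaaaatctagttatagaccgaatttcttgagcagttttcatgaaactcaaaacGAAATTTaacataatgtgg
SARD1, chr1:27749249-27749498, minus strand: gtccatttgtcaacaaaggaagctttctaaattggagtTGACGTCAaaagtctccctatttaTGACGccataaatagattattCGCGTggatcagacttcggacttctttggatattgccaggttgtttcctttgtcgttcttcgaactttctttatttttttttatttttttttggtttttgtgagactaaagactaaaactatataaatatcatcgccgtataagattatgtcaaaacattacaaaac

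Of the 7 genes, 5 were higher in gp1-2 than in Col-0 without bacteria, 1 was lower and 1 was not called. The higher genes were PBS3, SARD1, ICS1, CBP60g and EDS5, the lower one was ICS2, and EPS1 was not called. With volatiles the same genes fell into the same classes. Across all genes tested, 37.2% were called without bacteria, of which higher ones made up 20.0% of the genes tested and lower ones 17.2%. With volatiles 45.9% were called, 22.6% as higher and 23.3% as lower. The median over the 7 genes was 3.66 without bacteria and 4.15 with volatiles on the log2 scale, beside −0.02 and −0.04 over all genes tested. For 6 of the 7 genes the gp1-2 and Col-0 libraries did not overlap in either condition, where 47.6% of all genes tested did not overlap without bacteria and 54.2% with volatiles. The plot of the 7 genes by library shows every value.

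**Figure D1:**
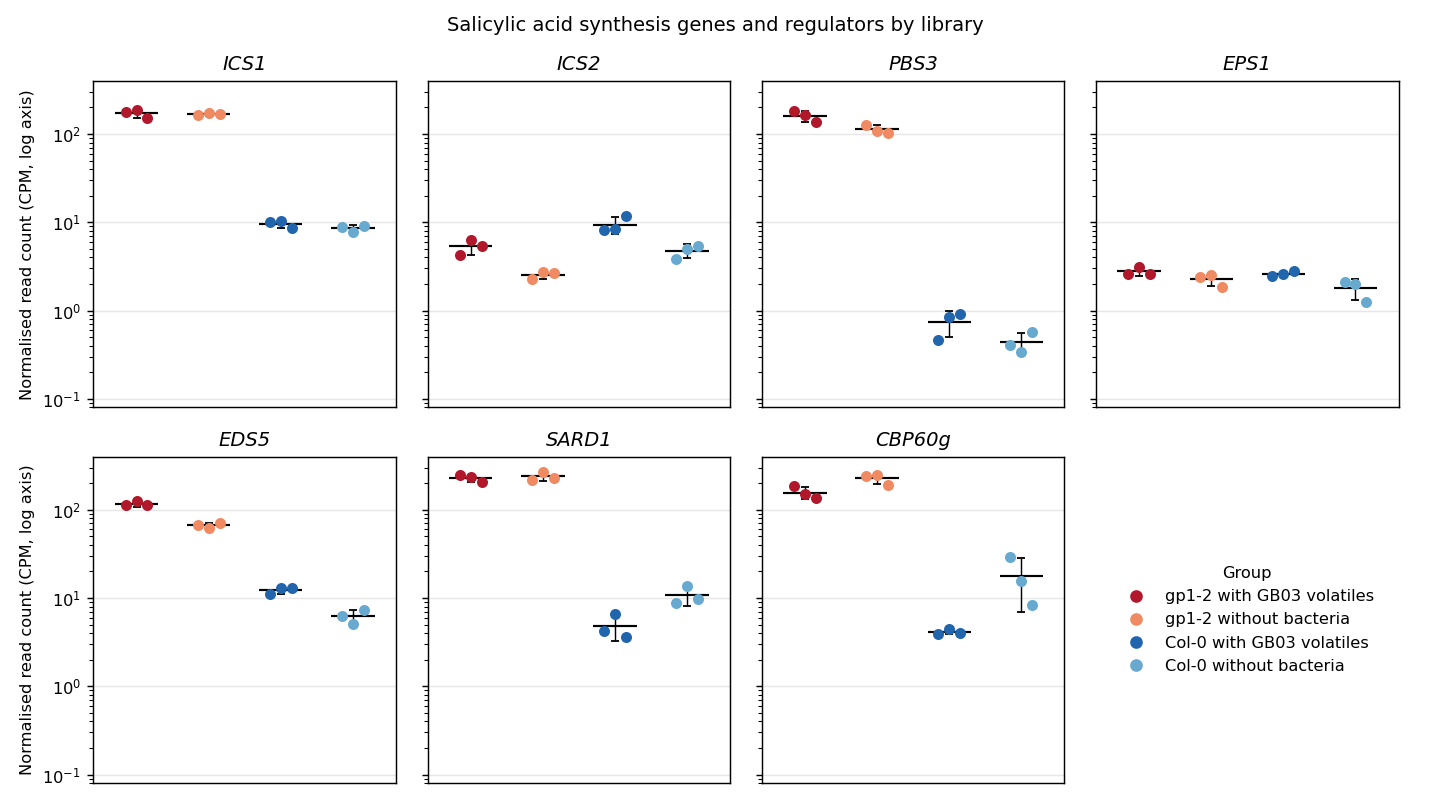
Level of each of the 7 genes in CPM on a log axis, 1 point per library and a bar at the group mean, for gp1-2 with volatiles, gp1-2 without bacteria, Col-0 with volatiles and Col-0 without bacteria. ICS1, PBS3, EDS5, SARD1 and CBP60g lie higher in all 6 gp1-2 libraries than in all 6 Col-0 libraries, while ICS2 spans 2.26 to 11.7 CPM and EPS1 1.24 to 3.12 CPM.

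ICS1, which commits chorismate to this route, stood at 179, 186 and 150 CPM in gp1-2 with volatiles and at 165, 171 and 169 CPM in gp1-2 without bacteria. In Col-0 it stood at 9.95, 10.4 and 8.6 CPM with volatiles and at 8.85, 7.78 and 9.08 CPM without bacteria. All 6 gp1-2 libraries were far above all 6 Col-0 libraries, and within each genotype the libraries with and without volatiles overlapped. The difference between gp1-2 and Col-0 was 4.30 ± 0.12 on the log2 scale without bacteria, or 19.7-fold (edgeR adjusted p 2.9e-13). With volatiles it was 4.15 ± 0.11, or 17.8-fold (edgeR adjusted p 2.3e-13). Volatiles against no bacteria gave 0.03 ± 0.09 in gp1-2 and 0.17 ± 0.12 in Col-0 (edgeR adjusted p 0.85 and 0.30), so no effect of the volatiles on ICS1 was called.

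ICS2, the second isochorismate synthase gene, went the other way. Its level was 4.26, 6.29 and 5.4 CPM in gp1-2 with volatiles and 2.26, 2.71 and 2.65 CPM in gp1-2 without bacteria. The Col-0 libraries held 8.08, 8.36 and 11.7 CPM with volatiles and 3.79, 5.03 and 5.45 CPM without bacteria. Within each condition every gp1-2 library was below every Col-0 library, and within each genotype every library with volatiles was above every library without. ICS2 was at 0.539 times the Col-0 level in gp1-2 without bacteria, which is −0.89 ± 0.22 on the log2 scale (edgeR adjusted p 0.0049), and at 0.568 times with volatiles, or −0.82 ± 0.18 (edgeR adjusted p 0.0017). Volatiles raised it 2.09-fold in gp1-2 (1.07 ± 0.21, edgeR adjusted p 0.0011) and 1.99-fold in Col-0 (0.99 ± 0.20, edgeR adjusted p 0.0015). The test of the difference between those effects gave 0.07 on the log2 scale, which was not called.

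Set against each other, the paired genes differed between the genotypes in their balance. Per kilobase of exon, ICS1 made up 96.9% ± 0.632 of the summed ICS1 and ICS2 level in gp1-2 with volatiles and 98.5% ± 0.12 in gp1-2 without bacteria, against 50.1% ± 7.47 in Col-0 with volatiles and 63.6% ± 5.01 in Col-0 without bacteria (SD, n = 3 each). The Col-0 shares were 54.2%, 54.5% and 41.4% with volatiles and 69.3%, 59.8% and 61.6% without bacteria. No Col-0 library came near the gp1-2 shares. The mean over both conditions was 97.7% in gp1-2 and 56.8% in Col-0, a difference of 40.9 percentage points. A two-sided exact permutation test within the conditions gave p = 0.005, the smallest that its 400 arrangements allow. Within each condition ICS1 was higher and ICS2 lower in every gp1-2 library, which fixed this p-value in advance. It therefore adds no support to the calls of ICS1 and ICS2. Leaving out any 1 library kept the difference between 38.7 and 42.3 points. ICS2 overlaps the opposite-strand gene AT1G18871 by 87 bases, and that gene had 0 counts in every library. The coding sequences of ICS1 and ICS2 are 79.9% identical, with a longest identical run of 23 bases.

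**Figure D2:**
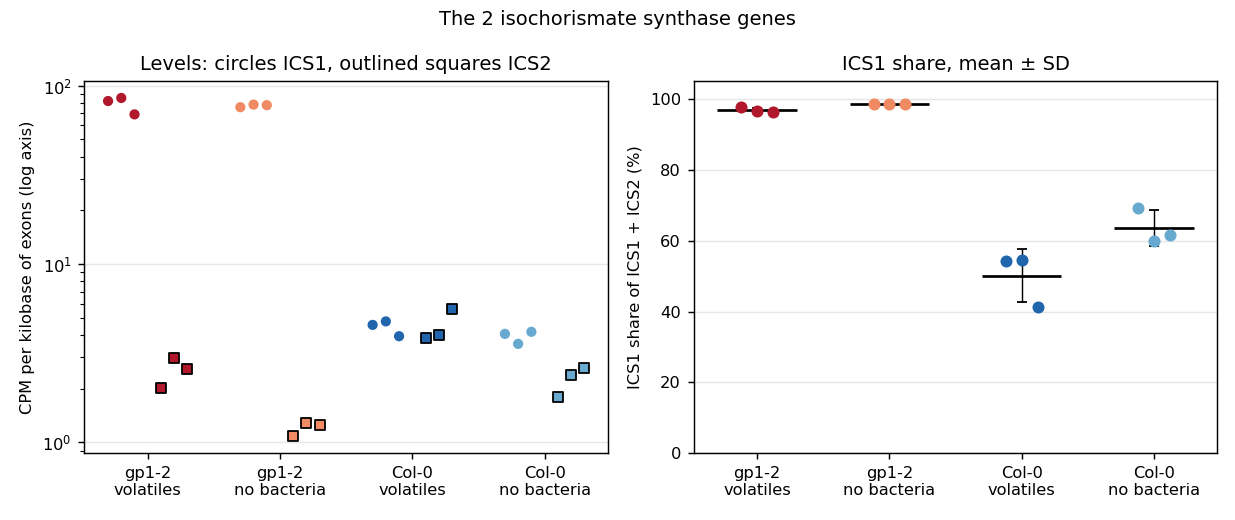
ICS1 and ICS2 levels per kilobase of exon, and the share of ICS1 in their sum, 1 point per library, with a bar at the mean share ± SD of each group. The share lies near 100% in the 6 gp1-2 libraries, with group means of 96.9% and 98.5%, against means of 50.1% and 63.6% in Col-0.

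PBS3, which joins glutamate to isochorismate, had the highest log2 fold change of the 7 genes. It stood at 181, 162 and 135 CPM in gp1-2 with volatiles and at 127, 109 and 103 CPM in gp1-2 without bacteria. In Col-0 it was barely detected, at 0.467, 0.855 and 0.905 CPM with volatiles and 0.406, 0.335 and 0.574 CPM without bacteria, which rests on 7, 13 and 14 and on 6, 5 and 6 counts. The lowest gp1-2 library was above 100 CPM and no Col-0 library reached 1 CPM. Without bacteria the log2 fold change was 8.03 ± 0.21, or 262-fold, and with volatiles 7.73 ± 0.19, or 212-fold (edgeR adjusted p 2.7e-13 and 1.1e-13). Volatiles raised PBS3 1.41-fold in gp1-2, with no overlap of the libraries (0.50 ± 0.12, edgeR adjusted p 0.0048). In Col-0 the libraries overlapped and the log2 fold change of 0.80 ± 0.40 was not called (edgeR adjusted p 0.15). The difference between the volatile effects in gp1-2 and Col-0 was −0.31 on the log2 scale and was not called either.

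EPS1, which speeds up the release of salicylic acid from the conjugate, was low throughout. Its level was 2.62, 3.12 and 2.59 CPM in gp1-2 with volatiles and 2.37, 2.54 and 1.85 CPM in gp1-2 without bacteria, against 2.47, 2.57 and 2.78 CPM in Col-0 with volatiles and 2.1, 2.01 and 1.24 CPM in Col-0 without bacteria. The genotypes overlapped in both conditions. The log2 fold change of gp1-2 over Col-0 was 0.30 ± 0.23 without bacteria and 0.09 ± 0.21 with volatiles (edgeR adjusted p 0.34 and 0.76). Volatiles gave 0.30 ± 0.20 in gp1-2 and 0.51 ± 0.23 in Col-0 (edgeR adjusted p 0.29 and 0.11), and neither was called although the libraries with volatiles were above those without in both genotypes. Its neighbour on the same strand, AT5G67150, a gene of the same acyltransferase family, was lower in gp1-2 by both tests. On the log2 scale it stood at −0.64 ± 0.12 without bacteria and −0.48 ± 0.12 with volatiles (edgeR adjusted p 0.00079 and 0.0039).

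EDS5, the exporter of isochorismate from the plastid, differed by both genotype and volatiles. It stood at 112, 126 and 112 CPM in gp1-2 with volatiles and at 67.1, 62.3 and 70.3 CPM in gp1-2 without bacteria. Col-0 held 11, 13 and 13 CPM with volatiles and 6.29, 5.1 and 7.36 CPM without bacteria. EDS5 and CBP60g were the genes of the 7 whose 4 groups did not overlap at all. The share of all genes tested with that pattern was not computed. The log2 fold change of gp1-2 over Col-0 was 3.43 ± 0.12 without bacteria, or 10.8-fold, and 3.24 ± 0.12 with volatiles, or 9.44-fold (edgeR adjusted p 6.9e-12 and 3.9e-12). Volatiles raised EDS5 1.75-fold in gp1-2 (0.81 ± 0.10, edgeR adjusted p 2.7e-05) and 2.00-fold in Col-0 (1.00 ± 0.13, edgeR adjusted p 5.4e-05). The volatile effects in gp1-2 and Col-0 differed by −0.19 on the log2 scale, which was not called. EDS5 overlaps the opposite-strand gene AT4G39040 by 213 bases, and that gene had 1283 to 1977 counts in the 12 libraries. Whether counting used the strand is not given in the sources used here, so reads of the overlap cannot be told apart.

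SARD1 was at 248, 232 and 205 CPM in gp1-2 with volatiles and at 217, 270 and 227 CPM in gp1-2 without bacteria. In Col-0 it was at 4.27, 6.58 and 3.62 CPM with volatiles and at 8.85, 13.7 and 9.66 CPM without bacteria. The gp1-2 libraries overlapped between the conditions, while in Col-0 every library with volatiles was below every library without. SARD1 was 22.1-fold higher in gp1-2 without bacteria (4.46 ± 0.19, edgeR adjusted p 4.5e-11) and 47.3-fold higher with volatiles (5.56 ± 0.21, edgeR adjusted p 6.1e-12). Volatiles lowered it to 0.448 times the level without bacteria in Col-0 (−1.16 ± 0.21, edgeR adjusted p 0.00075), and the change in gp1-2 was −0.06 ± 0.16 (edgeR adjusted p 0.80). The volatile effects in gp1-2 and Col-0 differed by 1.10 ± 0.26 on the log2 scale (edgeR adjusted p 0.036), where 2.80% of all genes tested were called, 1.48% in that direction and 1.32% in the other. This call was lost without any 1 of 7 libraries: Col-0 without bacteria replicate 2 (0.87), Col-0 with volatiles replicates 1 and 3 (1.02 and 0.93), gp1-2 without bacteria replicates 1 and 3 (1.04 and 1.06), and gp1-2 with volatiles replicates 1 and 2 (1.03 and 1.09). It was also lost without the third library of every group (1.03, edgeR adjusted p 0.073), and over the alternatives the lowest adjusted p was 0.00091 and the highest 1. SARD1 overlaps the opposite-strand gene AT1G73790 by 640 bases. That gene had 46 to 84 counts in gp1-2 with volatiles and 45 to 58 in gp1-2 without bacteria, where SARD1 had at least 3937. In Col-0 it had 27 to 70 counts with volatiles and 29 to 40 without bacteria, against 56 to 100 and 101 to 204 counts of SARD1, so with the strand setting unknown reads of the overlap cannot be told apart in the Col-0 levels of SARD1 and the volatile effects that rest on them.

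CBP60g, the partner of SARD1 in activating ICS1, gave 183, 149 and 137 CPM in gp1-2 with volatiles and 242, 247 and 191 CPM in gp1-2 without bacteria. In Col-0 it gave 3.94, 4.41 and 4.01 CPM with volatiles and 29.2, 15.4 and 8.22 CPM without bacteria. The Col-0 libraries without bacteria were widely spread but all above those with volatiles, and all gp1-2 libraries were above all Col-0 libraries. CBP60g was 12.7-fold higher in gp1-2 without bacteria (3.66 ± 0.29, edgeR adjusted p 7.9e-08) and 37.8-fold higher with volatiles (5.24 ± 0.33, edgeR adjusted p 3.8e-09). Leaving out 1 library at a time put the log2 fold change without bacteria between 3.35 and 4.24. Volatiles lowered CBP60g to 0.231 times the level without bacteria in Col-0 (−2.12 ± 0.33, edgeR adjusted p 0.00024).

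In gp1-2 the libraries with volatiles were also all below those without, but the log2 fold change of −0.54 ± 0.25 was not called (edgeR adjusted p 0.12). It was called when the fit held only the 6 gp1-2 libraries (−0.53), with the replicate number as a block (−0.55), without Col-0 without bacteria replicate 1 or replicate 3 (−0.54 each) and without the third library of every group (−0.56). The volatile effects on CBP60g in gp1-2 and Col-0 differed by 1.58 ± 0.42 (edgeR adjusted p 0.059), which was not called. It was called with no filter on low counts (1.58, edgeR adjusted p 0.027), with the replicate block (1.5, 0.016), without Col-0 without bacteria replicate 3 (1.89, 0.0037) and without the third library of every group (1.85, 0.010). Without Col-0 without bacteria replicate 1 it was 1.00.

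Across the volatile comparisons, 3 of the 7 genes were called higher with volatiles in gp1-2 (ICS2, PBS3 and EDS5) and none lower, where 32.3% of all genes tested were called, 14.7% as higher and 17.6% as lower. In Col-0, 2 were called higher (ICS2 and EDS5) and 2 lower (SARD1 and CBP60g), where 30.1% were called, 14.8% as higher and 15.3% as lower. Both genotypes had 5 genes whose libraries with and without volatiles did not overlap, beside 47.3% of all genes tested in gp1-2 and 41.6% in Col-0. In Col-0 the transporter and ICS2 thus rose while the regulators SARD1 and CBP60g fell, and ICS1 was not called. The median log2 fold change of the 7 genes with volatiles was 0.30 in gp1-2 and 0.51 in Col-0, beside 0 over all genes tested in each.

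**Figure D3:**
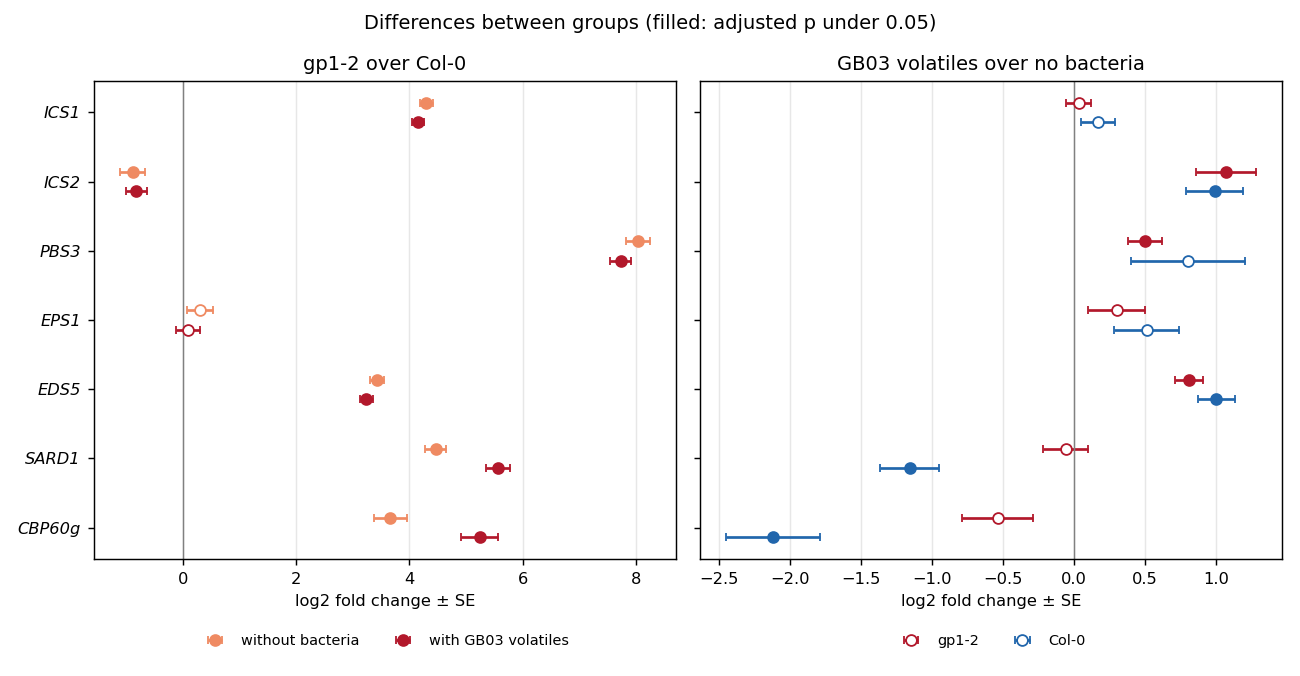
Log2 fold changes ± SE of the 7 genes from edgeR, for gp1-2 over Col-0 in each condition on the left and for volatiles over no bacteria in each genotype on the right, with filled points where the adjusted p was under 0.05. On the left PBS3 reaches 8.03 and ICS2 lies below 0 at −0.89 and −0.82, and on the right SARD1 and CBP60g lie at −1.16 and −2.12 in Col-0.

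Compared per kilobase of exon, the order of the genes differed between the genotypes. In gp1-2 without bacteria SARD1 and CBP60g led at 99.3 and 98.4 CPM per kb, ICS1 followed at 77.2, PBS3 at 43.1 and EDS5 at 29.4, with EPS1 and ICS2 last at 1.35 and 1.21. The first and second of these levels differ by less than the spread between the libraries. The last places are not separated either, since in replicate 3 ICS2 was at 1.26 and EPS1 at 1.11. In Col-0 without bacteria CBP60g led at 7.63 CPM per kb, followed by SARD1 at 4.48, ICS1 at 3.93, EDS5 at 2.76, ICS2 at 2.27, EPS1 at 1.07 and PBS3 at 0.167. The CBP60g libraries there spanned 3.57 to 12.7 CPM per kb, and in replicate 3 CBP60g was below SARD1 at 4.03 and ICS1 at 4.17, so the first places are not separated. With volatiles gp1-2 had SARD1 first at 95.2 CPM per kb, then ICS1 at 78.7, CBP60g at 67.7, PBS3 at 60.8, EDS5 at 51.6, ICS2 at 2.53 and EPS1 at 1.66. There each of ICS1 (69 to 85.3), CBP60g (59.3 to 79.3), PBS3 (51.5 to 69) and EDS5 (49.3 to 55.7) overlapped the next over the libraries. Within each single library the order was the same. In Col-0 with volatiles EDS5 was first at 5.46 CPM per kb, then ICS2 at 4.47, ICS1 at 4.43, SARD1 at 2.01, CBP60g at 1.79, EPS1 at 1.56 and PBS3 at 0.284. There the libraries of EDS5 (4.87 to 5.76) overlapped those of ICS2 (3.85 to 5.57), which overlapped those of ICS1 (3.94 to 4.77). Reads of the overlap with AT4G39040 cannot be told apart in EDS5, so its first place is not established. PBS3 thus stood last in Col-0 in both conditions, in every library below EPS1. Relative to ICS1 on the same scale, PBS3 was at 77.2% ± 6.19 in gp1-2 with volatiles and 55.9% ± 6.98 in gp1-2 without bacteria, against 6.51% ± 2.44 in Col-0 with volatiles and 4.22% ± 0.906 in Col-0 without bacteria (SD, n = 3 each). EDS5 was at 65.8% and 38.1% of ICS1 in gp1-2 with and without volatiles, against 124% and 69.9% in Col-0 with and without volatiles. EPS1 was at 2.12% and 1.75% of ICS1 in gp1-2, against 35.6% and 27.5% in Col-0, in the same order of conditions.

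Upstream of isochorismate, 10 genes of the shikimate pathway, which makes chorismate, were measured. In gp1-2 against Col-0, 2 were called higher without bacteria and 3 with volatiles, and none was called lower, with medians of 0.14 and 0.16 on the log2 scale. The share of 2 in 10 equals the 20.0% of all genes called higher. Both calls without bacteria, DHS3 (0.27) and the chorismate synthase gene CS (0.26), were lost without Col-0 without bacteria replicate 2 (0.24 and 0.21) and without gp1-2 without bacteria replicate 1 (0.27 and 0.25) or replicate 3 (0.20 and 0.22). DHS3 was also lost without Col-0 without bacteria replicate 1 (0.26), Col-0 with volatiles replicate 2 or gp1-2 with volatiles replicate 1 (0.27 each). Upper-quartile scaling lost both DHS3 and CS. The fit on only the 6 libraries compared and the thinned counts lost DHS3. The call of DHS1 with volatiles (0.30) was lost without Col-0 with volatiles replicate 2 (0.27) and with upper-quartile scaling. With volatiles against no bacteria, 5 were called higher and 1 lower in each genotype, beside 14.7% higher and 17.6% lower of all genes tested in gp1-2 and 14.8% and 15.3% in Col-0. Those called higher in both genotypes included CS, at 0.40 ± 0.08 in gp1-2 and 0.51 ± 0.08 in Col-0 (edgeR adjusted p 0.0019 and 0.00038), and the one called lower in both was DHS2, at −0.57 ± 0.08 and −0.29 ± 0.08 (edgeR adjusted p 8.5e-05 and 0.013). CS and DHS2 are named for the volatiles after their values were seen. DHS3, one of the genes for the first enzyme, had the highest log2 fold change of the 10 between the genotypes with volatiles, 0.70 ± 0.10 (edgeR adjusted p 2.4e-05). The 6 genes of other enzymes that use chorismate split into 3 called higher, 2 called lower and 1 not called in each condition, with medians of 0.38 and 0.43. Over all genes 37.2% were called without bacteria and 45.9% with volatiles. ASA2, a second alpha subunit gene and 1 of the lower calls, was at −0.25 with volatiles. That call was lost without the third library of every group (−0.22), without Col-0 with volatiles replicates 1 or 3 (−0.21 and −0.22), without gp1-2 with volatiles replicate 1, 2 or 3 (−0.26, −0.25 and −0.26) and without gp1-2 without bacteria replicate 1 or 2 (−0.25 each). RLE scaling, DESeq2, no filter on low counts and the fit on only the 6 libraries compared also lost the ASA2 call. CM1, a chorismate mutase gene, was the other lower call, and with volatiles (−0.29) it was lost without gp1-2 with volatiles replicate 2 (−0.25). ASA1, the alpha subunit of anthranilate synthase at the entry to tryptophan synthesis, was at 189, 186 and 154 CPM in gp1-2 with volatiles and 138, 135 and 142 CPM in gp1-2 without bacteria, against 36.4, 36.5 and 38.3 CPM in Col-0 with volatiles and 43.2, 39.8 and 46.3 CPM in Col-0 without bacteria. It was higher in gp1-2 by 1.68 ± 0.10 on the log2 scale without bacteria and by 2.25 ± 0.10 with volatiles (edgeR adjusted p 1.4e-09 and 3.6e-11). ASB1, a gene of the beta subunit, rose with it, by 1.59 ± 0.13 and 1.71 ± 0.12 (edgeR adjusted p 7e-08 and 1.6e-08).

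Salicylic acid can also be made from phenylalanine. Of 5 genes of that route, 2 were called higher and 1 lower in gp1-2 without bacteria, and 1 higher and 1 lower with volatiles, with a median of 0.03 in each. Of all genes tested, 37.2% were called without bacteria and 45.9% with volatiles. The 2 of 5 called with volatiles are near that 45.9%. PAL1 (0.25), 1 of the 2 higher without bacteria, was lost without any 1 of 8 libraries, with log2 fold changes of 0.20 to 0.26. These were Col-0 without bacteria replicates 2 and 3, Col-0 with volatiles replicate 2, all gp1-2 replicates without bacteria and gp1-2 with volatiles replicates 1 and 2. PAL1 was also lost with RLE or upper-quartile scaling and in the fit on only the 6 libraries compared. PAL4 (0.42), the higher one with volatiles, was lost without the third library of every group (0.39), without Col-0 with volatiles replicate 1 or 3 (0.35 and 0.32) and without gp1-2 with volatiles replicate 2 (0.28). Upper-quartile scaling lost PAL4 too. PAL3, a phenylalanine ammonia-lyase gene, was the lower one, at −0.79 ± 0.14 without bacteria and −0.72 ± 0.14 with volatiles (edgeR adjusted p 0.00035 and 0.00055). AIM1, of peroxisomal beta-oxidation, was called higher without bacteria, at 0.32 ± 0.08 (edgeR adjusted p 0.0057).

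Transcription factors listed as activators of ICS1, SARD1 or CBP60g mostly rose or were not called. Of 12, 6 were called higher and 1 lower in gp1-2 without bacteria, and 7 higher and 2 lower with volatiles, with medians of 0.30 and 0.45, beside 20.0% and 17.2% of all genes called higher and lower without bacteria and 22.6% and 23.3% with volatiles. MYB96, 1 of the 2 lower with volatiles (−0.54), was lost without Col-0 with volatiles replicate 1 (−0.40). WRKY46 was at 99, 73.4 and 67.7 CPM in gp1-2 with volatiles and 151, 159 and 121 CPM in gp1-2 without bacteria, against 2.27, 2.17 and 1.87 CPM in Col-0 with volatiles and 7.77, 5.16 and 2.77 CPM in Col-0 without bacteria. All gp1-2 libraries were above all Col-0 libraries, at log2 fold changes of 4.73 ± 0.24 without bacteria and 5.24 ± 0.26 with volatiles (edgeR adjusted p 3.7e-10 and 2.5e-10). WRKY8 rose by 3.74 ± 0.23 and 5.79 ± 0.21 in the same comparisons (edgeR adjusted p 4.3e-09 and 3.7e-12). CHE, a clock-linked factor that binds the ICS1 promoter, was lower, at −0.69 ± 0.19 without bacteria and −0.74 ± 0.19 with volatiles (edgeR adjusted p 0.0094 and 0.0042). The first of these CHE calls was lost without Col-0 without bacteria replicate 3 (−0.52).

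Factors listed as repressors rose in similar numbers. Of 11, 6 were called higher and none lower in gp1-2 without bacteria, and 7 higher and 1 lower with volatiles, with medians of 0.36 and 0.98, to be read against the same shares of all genes. EIL1, the lower one (−0.39), was lost without Col-0 with volatiles replicate 1 or 2 (−0.35 each) or gp1-2 with volatiles replicate 3 (−0.30). WRKY70, which with WRKY54 is known to restrain salicylic acid build-up, was at 246, 216 and 262 CPM in gp1-2 with volatiles and 386, 388 and 337 CPM in gp1-2 without bacteria, against 7.94, 6.12 and 5.95 CPM in Col-0 with volatiles and 46.1, 37.7 and 16.4 CPM in Col-0 without bacteria. It was higher in gp1-2 by 3.46 ± 0.25 on the log2 scale without bacteria and by 5.18 ± 0.28 with volatiles (edgeR adjusted p 2.9e-08 and 7e-10). WRKY54 was higher by 5.16 ± 0.17 without bacteria and by 4.17 ± 0.16 with volatiles (edgeR adjusted p 2.5e-12 and 1.2e-11). ANAC019, a NAC factor that represses ICS1, was higher by 2.89 ± 0.24 without bacteria and 6.13 ± 0.31 with volatiles on the log2 scale (edgeR adjusted p 1.4e-07 and 2.9e-10). No Col-0 library with volatiles had more than 6 counts of ANAC019.

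With volatiles against no bacteria, gp1-2 had 3 of 12 activators called higher and 4 lower, beside 14.7% and 17.6% of all genes tested, and Col-0 had 2 called higher and 5 lower, beside 14.8% and 15.3%. Among the 11 repressors, gp1-2 had 1 called higher and 5 lower, and Col-0 had none higher and 6 lower. The median of the repressors was −0.28 in gp1-2 and −0.55 in Col-0, and that of the activators −0.10 and −0.16.

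**Figure D4:**
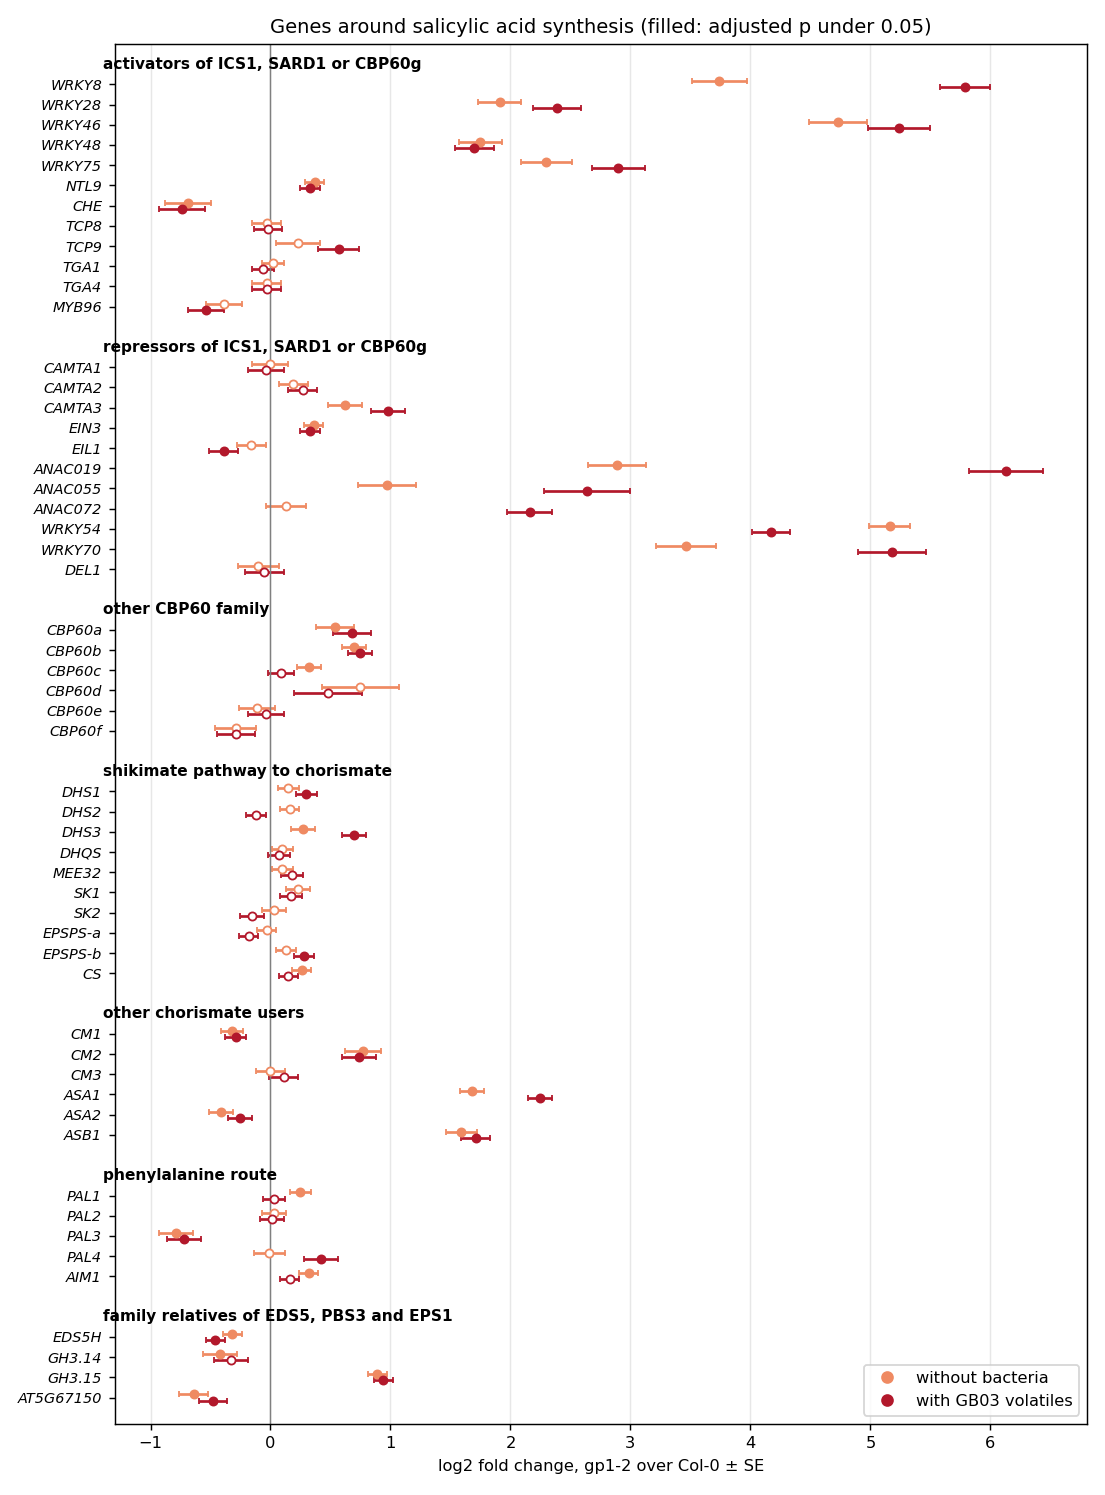
Log2 fold change of gp1-2 over Col-0 for each tested gene of the related lists, without the 7 genes themselves, in each condition, with filled points where the edgeR adjusted p was under 0.05. The shikimate genes lie between −0.18 and 0.70, while activators reach 5.79 and repressors 6.13.

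Among the family relatives of the 7 genes no log2 fold change between the genotypes was above 0.94. Of the 6 other CBP60 genes, 3 were called higher in gp1-2 without bacteria and 2 with volatiles, and none was called lower, where 20.0% and 22.6% of all genes were called higher. CBP60b was higher by 0.70 ± 0.10 and 0.75 ± 0.10 in these comparisons (edgeR adjusted p 6.4e-05 and 2.1e-05). CBP60a, known as a negative regulator of immunity, was higher by 0.68 ± 0.16 with volatiles (edgeR adjusted p 0.0028). Without bacteria its call (0.54) was lost without the third library of every group (0.46), without Col-0 without bacteria replicate 1 or 3 (0.36 and 0.50) and without gp1-2 without bacteria replicate 2 (0.45). Of 7 relatives of EDS5, PBS3 and EPS1, 4 passed the filter on low counts. Without bacteria 1 of these 4 was called higher and 3 lower, beside 20.0% and 17.2% of all genes. With volatiles 1 was called higher and 2 lower, beside 22.6% and 23.3%. GH3.14, 1 of the 3 lower without bacteria (−0.42), was lost without Col-0 without bacteria replicate 1 (−0.29) or gp1-2 without bacteria replicate 2 or 3 (−0.34 and −0.39). GH3.15, a family relative that lies near PBS3 on chromosome 5, was higher by 0.89 ± 0.08 and 0.94 ± 0.08 (edgeR adjusted p 3.2e-07 and 1.4e-07). GH3.7, whose coding sequence is 78.9% identical to that of PBS3, had at most 1 count in any library. EDS5H, whose coding sequence is 70.5% identical to that of EDS5, was lower by −0.46 ± 0.08 with volatiles on the log2 scale (edgeR adjusted p 0.00015).

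The genes whose pattern lay closest to each of the 7 were found by the root mean square difference of centred log2 CPM over the 12 libraries. For ICS1 these were GSTF2 (0.15), SAL2 (0.16) and DMR6 (0.20), and DMR6 averaged 176 and 175 CPM in gp1-2 with and without volatiles against 11.4 and 10.9 CPM in Col-0 with and without. CBP60g lay closest to WRKY70 (0.25), SIB1 (0.26) and AT5G52750 (0.37), and SARD1 to AT3G60420 (0.35), HR4 (0.36) and AT4G18250 (0.36). The nearest to EDS5 were ERO1 (0.26), AIG2 (0.27) and AT5G44820 (0.27). PBS3 had AT2G04495 (0.35), CYP76C5 (0.43) and AT3G61280 (0.46), of which the first and second were listed at 0 in Col-0 on average. ICS2 lay closest to TET10 (0.15), AT5G13400 (0.21) and MTO3 (0.21), and EPS1, which varied least, to AT2G23040 (0.12), AT4G04790 (0.14) and AT3G44970 (0.15). Among the 7 themselves, SARD1 and CBP60g were nearest to each other (0.60), followed by ICS1 and EDS5 (0.61) and ICS1 and SARD1 (0.66), and ICS2 and PBS3 were farthest apart (4.25). These distances describe the 12 libraries, which share the genotype contrast, and carry no test.

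In the printed promoters, GAAATTT was found at 2 places in ICS1, with leftmost bases at −129 and −96 from the gene start, and at 1 place in ICS2, at −19. Counted on both strands, 12.5% of 27443 promoters of 250 bases hold this run of letters, as do 2 of the 7 genes. Those 2 are the synthase genes ICS1 and ICS2, and binding at these places was not tested. SARD1 holds CGCGT at −167, which 6.90% of promoters hold, and TGACG at −212, −209 and −188, which 18.6% hold. The first and second of these TGACG matches overlap, on opposite strands. EDS5 holds TTGACT, a W-box core bound by WRKY factors, at −234 and −105, which 19.1% hold. TTGACC, the other W-box core searched, is in 12.2% of promoters and in none of the 7. Over 1000 bases, GAAATTT was in 38.3% of promoters and in 3 of the 7 genes, CGCGT in 20.7% and 4, TTGACC in 35.3% and 2, TTGACT in 50.6% and 2, and TGACG in 54.1% and 4.

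**Figure D5:**
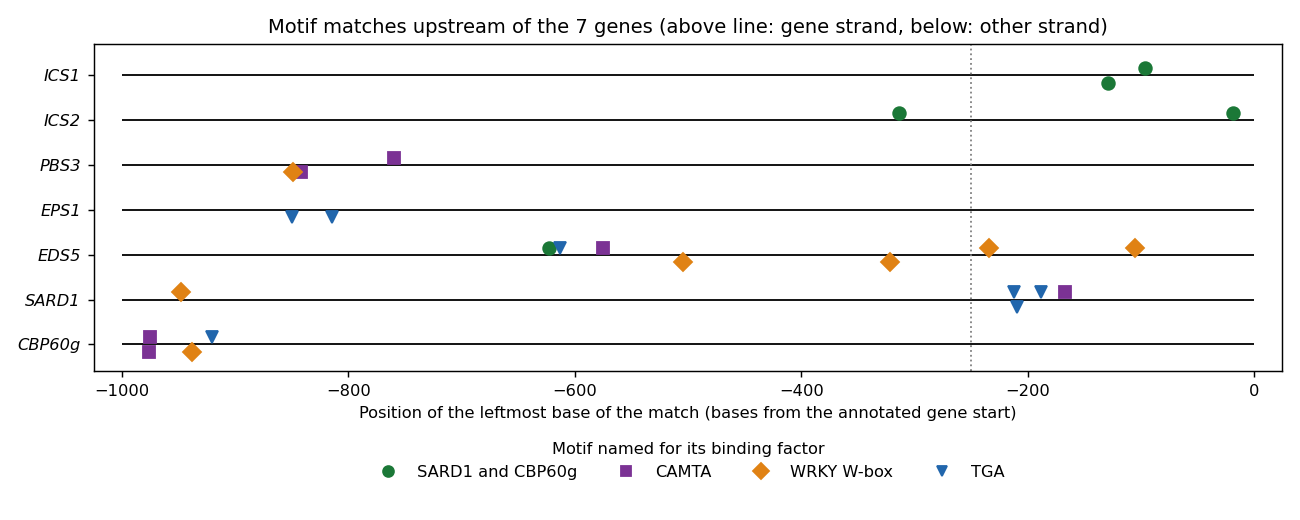
Matches of the 5 motifs searched, coloured by the factor that binds them, in the 1000 bases before the annotated start of each of the 7 genes, placed by the leftmost base of each match in bases from the gene start, above the line on the gene's strand and below it on the other, with a dotted line at 250 bases. ICS1 has matches at −129 and −96 and no others, and most matches of the other genes lie farther from the start.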

How the data were processed

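The deposited table holds raw read counts per gene for 12 libraries, and its identifiers matched those of the RefSeq gene table of TAIR10.1 for 32836 of 33602. The submitters' processing notes name Trimmomatic 0.36, HISAT2 2.1.0 and HTSeq 0.9.1 and the build TAIR10, without roles or order. Whether counting used the strand is not given in the sources used here. Gene models, exon lengths and promoter sequences came from TAIR10.1, whose coordinates are those printed.

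From the counts as deposited, edgeR 4.0.16 in R 4.3.3 tested all genes kept by filterByExpr, with TMM scaling and 1 coefficient per group over all 12 libraries (8 residual degrees of freedom, quasi-likelihood F-test, Benjamini-Hochberg adjustment, called under 0.05). Both genotype comparisons, both volatile comparisons and their interaction were made. The genotype comparisons share libraries with the volatile ones. The p-values measure the spread between 3 biological replicates per group. The members and lists were chosen with earlier results of these data known. All 7 members are named. From each list, the named genes are those with the largest called rises and falls in a genotype comparison, up to 2 each way, with the closest relatives of the members. Alternatives were RLE or upper-quartile scaling in place of TMM, DESeq2 1.42.0, limma 3.58.1 with voom and no filter. Further ones were fits on only the 6 libraries compared, a replicate block, thinned counts, a minimum log2 fold change of 1 and leaving out libraries. Leaving out the third library of every group was chosen after seeing the data.

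Replicate numbers are shared between the groups. Same-numbered libraries deviated together at correlations of 0.113 to 0.218 between the genotypes without bacteria, each over 0.1. The numbers may therefore pair those groups, from the data and not from the labels. The reported tests used no pairing in any comparison, and the replicate block was fitted only as an alternative. The other comparisons gave 0.0347 to 0.253 between the genotypes with volatiles, 0.0475 to 0.186 between conditions in gp1-2 and −0.0317 to 0.0456 between conditions in Col-0. With volatiles, gp1-2 replicate 2 and Col-0 replicate 1 also gave 0.17. The correlations therefore do not settle whether the numbers pair libraries. The test procedure was run on simulated counts with 200 genes changed in gp1-2 without bacteria. Only the comparison with Col-0 without bacteria was scored, where 7723 genes were called in the real counts. The interaction was not scored, so the simulation says nothing about the SARD1 interaction call.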

Additional observations from a re-analysis of the deposited data

Results flagged for a closer look

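The effect of the volatiles on SARD1 differed between the genotypes by a test of that difference. The log2 fold change of volatiles over no bacteria was −0.06 ± 0.16 in gp1-2 and −1.16 ± 0.21 in Col-0, a difference of 1.10 ± 0.26 (SE; edgeR adjusted p 0.036). All 3 Col-0 libraries with volatiles were below the 3 without, while the gp1-2 libraries overlapped. The call was lost without any 1 of the 7 libraries named above.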

How the results depend on the processing

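Of 762 values of the 7 genes under the alternatives, over 35 results, 725 kept their direction and their side of the threshold, 17 fell below it, 9 passed it and 11 changed sign, and none of those 11 was called. Against a minimum log2 fold change of 1, the members called lower in gp1-2 numbered 0 in both conditions, those higher with volatiles 0 in both genotypes, those lower with volatiles in Col-0 1, and those in the interaction 0. Over all genes this left 954 higher and 96 lower in gp1-2 without bacteria, 1356 and 293 with volatiles, 194 and 178 for volatiles in gp1-2, 114 and 236 for volatiles in Col-0, and 7 and 7 in the interaction. The replicate block gave 1 member lower with volatiles in gp1-2, 2 in the interaction, and 518 genes higher and 520 lower in the interaction, and changed no other call of a member. DESeq2 gave 544 higher in the interaction, no filter gave 2 members in the interaction, and the fit on 6 libraries and the one without the third libraries each gave 1 member lower with volatiles in gp1-2. Leaving out 1 library at a time, the interaction gave 189 to 348 genes higher and 132 to 267 lower, and 0 to 2 members. Members lower with volatiles in gp1-2 then numbered 0 to 1. ICS2 in the interaction ran from −0.06 to 0.27 and was −0.09 with thinned counts, ICS1 for volatiles in gp1-2 from −0.03 to 0.11, EPS1 between the genotypes with volatiles from 0 to 0.14, and SARD1 for volatiles in gp1-2 from −0.12 to 0.04. The cause was not tested. Depth limits PBS3 in Col-0, at 5 to 14 counts a library, and ANAC019 in Col-0 with volatiles, at 4 to 6 counts.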
